A study of Mus musculus with 4 samples.

Results

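Interferon-stimulated genes are genes whose transcription is switched on when a cell senses interferon. The 35 genes described here were chosen as a list of well-known members of this group, with earlier results of these data known. Each was found on the array by its gene name, out of 30210 gene names in all. The question was how these genes differed in mouse colon between Pla2g3 genotypes and between azoxymethane (AOM), a chemical carcinogen of the colon, and vehicle. Pla2g3 encodes sPLA2-III, a secreted phospholipase A2. Pooled colon RNA of Pla2g3+/+ and Pla2g3-/- mice given saline vehicle or AOM was hybridized to 4 one-color arrays, 1 per group. All groups were male, 42-wk-old and of the background strain B6.129 (n3), that is, from backcross generation 3. AOM was given intraperitoneally in weekly doses of 10 mg/kg over 6 weeks, and the animals were killed 28 weeks after the last dose. Each pool held 3 to 5 mice, and the submitters describe the AOM tissue as colorectal cancer. With 1 pool on 1 array per group, no difference between a pair of arrays has a replicate check or a p-value, and each describes the pools measured. The arrays are called WT-labeled (Pla2g3+/+) and KO-labeled (Pla2g3-/-) here, because the brightest of 3 Pla2g3 probes was not lower on the arrays labeled Pla2g3-/-. Its signal was 343 on the WT-labeled and 426 on the KO-labeled array with vehicle, and 304 and 1632, respectively, after AOM. The other Pla2g3 probes are not given here. Whether this probe lies within the deleted part of the gene is not given in the sources used here, and a probe outside it checks nothing. Directions follow the labels throughout.

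Type I interferons (interferon-α and -β) and type III interferons (interferon-λ) bind receptors on the cell surface that activate the kinases JAK1 and TYK2. These activate a transcription factor complex that contains STAT2 and IRF9 and binds the interferon-stimulated response element (ISRE) in the promoters of their target genes. Interferon-γ, made mainly by T cells and NK cells, acts through the gamma-activated site (GAS) of its target genes, and IRF1 extends that response. The products of the target genes sense foreign nucleic acid, block viral replication, attack intracellular microbes and trim peptides for antigen presentation. In the colon, both epithelial cells and immune cells respond to interferon.

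The value given for a gene is its relative signal, the fluorescence of its brightest probe divided by the 75th percentile of the array, so that 1 is the level of that percentile. A difference is a difference of log2 relative signals of the same probe, and 2-fold (1 on the log2 scale) is the threshold. Relative signals of different probes are not comparable with each other. All 35 members were well above background on all 4 arrays, by the call of the scanner software, so no member needed a bound. The SD of replicate spots of a probe had a median of 0.057 to 0.066 on the log2 scale by array. The highest of these medians corresponds to 0.093 for a difference between arrays, a typical value and not a limit. This spread covers spots within an array only, and not labeling, hybridization or the mice. Between 64.8% and 69.4% of the spots were well above background. The arrays after AOM were brighter throughout, with a 75th percentile of 1231 and 1092 against 609.3 and 609.2 with vehicle, so a comparison of AOM with vehicle depends on the scaling.

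In the promoters of the members, the ISRE was common. RefSeq promoter windows (GRCm38.p6, 250 bases before to 50 after the start) were at hand for 25 of the 35 members. The ISRE core was searched on both strands as GAAA, any 2 bases and GAAA, and 15 of these 25 members held it (60%), against 1079 of 27025 genes in the whole table (3.99%). The gamma-activated site, TTCNNNGAA, which reads the same on both strands, was present in 6 of the 25 (24%), against 9.55% of all genes. Matches that overlap each other were counted separately, and in Bst2 the GAS match overlaps an ISRE match. A match is a stretch of letters and not a measured binding site. The stretches below all lie before the start of the gene. They are a selection of the members with a match, and some of these were within 2-fold in the results that follow. They are written 5′ to 3′ on the strand of the gene, with the ISRE matches in capitals (TTTC, any 2 bases and TTTC is the same motif on the other strand).
Isg15 (chr4:156200845-156200926, minus strand): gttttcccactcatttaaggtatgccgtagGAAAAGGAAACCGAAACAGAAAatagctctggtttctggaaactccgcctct
Ifit3 (chr19:34583343-34583446, plus strand): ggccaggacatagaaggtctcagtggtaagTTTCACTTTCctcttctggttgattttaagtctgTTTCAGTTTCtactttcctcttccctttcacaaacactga
Ifit1 (chr19:34640755-34640843, plus strand): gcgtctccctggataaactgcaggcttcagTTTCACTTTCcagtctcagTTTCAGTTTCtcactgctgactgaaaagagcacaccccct
Bst2 (chr8:71537557-71537632, minus strand): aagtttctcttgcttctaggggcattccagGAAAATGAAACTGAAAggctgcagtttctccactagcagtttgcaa
Gbp3 (chr3:142559969-142560043, plus strand): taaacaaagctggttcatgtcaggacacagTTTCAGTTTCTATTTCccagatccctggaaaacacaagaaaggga
Igtp (chr11:58199492-58199555, plus strand): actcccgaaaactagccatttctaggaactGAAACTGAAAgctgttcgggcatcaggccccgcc
Oas1a (chr5:120907526-120907575, minus strand): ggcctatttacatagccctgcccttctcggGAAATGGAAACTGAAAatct
Oas1g (chr5:120887614-120887661, minus strand): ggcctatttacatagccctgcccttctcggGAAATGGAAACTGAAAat

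Isg15 held 3 overlapping matches in 1 run, the most of any member with a window, and Ifit1 and Ifit3 held 2 separate ones each. The Oas1a and Oas1g windows were identical at 207 of 298 compared bases (69.5%). Among the members whose windows held no ISRE core were Ifit2, Irf7, Ifi44 and Psmb9. After AOM, the median log2 difference between the KO-labeled and the WT-labeled array was -1.04 for the 15 members with the core and -0.75 for the 10 without it, and the range of each set, from -3.04 to 0.96 and from -3.31 to 0.67, covered most of the other.

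With vehicle, the interferon-stimulated genes were at nearly the same level in both genotypes. Between the KO-labeled and WT-labeled arrays, 0 of 35 members were over 2-fold higher, against 2.25% of the 20467 genes with a value, and 0 were over 2-fold lower, against 1.53%. With 35 members, counts of 0 lie near these shares. The median difference of the members was -0.05 and that of all genes -0.02 on the log2 scale. Members ranged from -0.79 to 0.44, with 24 of 35 below 0, against 10993 of the 20467 genes. The lowest were 3 antiviral genes. Bst2, which encodes tetherin, a protein that holds budding virus particles at the cell surface, had a relative signal of 4.52 in the WT-labeled pool and 2.61 in the KO-labeled pool (-0.79). Rsad2 (viperin) had 0.774 and 0.459 (-0.75) and Ifi44 0.408 and 0.286 (-0.51). The highest was Oasl1 (9.50 and 12.8, a difference of 0.44), followed by Mx2 (0.28). On the same array, 9 of 10 exocrine pancreas markers were over 2-fold higher, and the tenth, Clps, was lower (16.2 and 10.9). The summed relative signal of the list was 16.6 in the WT-labeled pool, nearly all of it from Clps, and 61.2 in the KO-labeled pool, and without Clps it was 0.331 and 50.4. The part of such tissue in the small differences of the members was not tested.

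**Figure D1:**
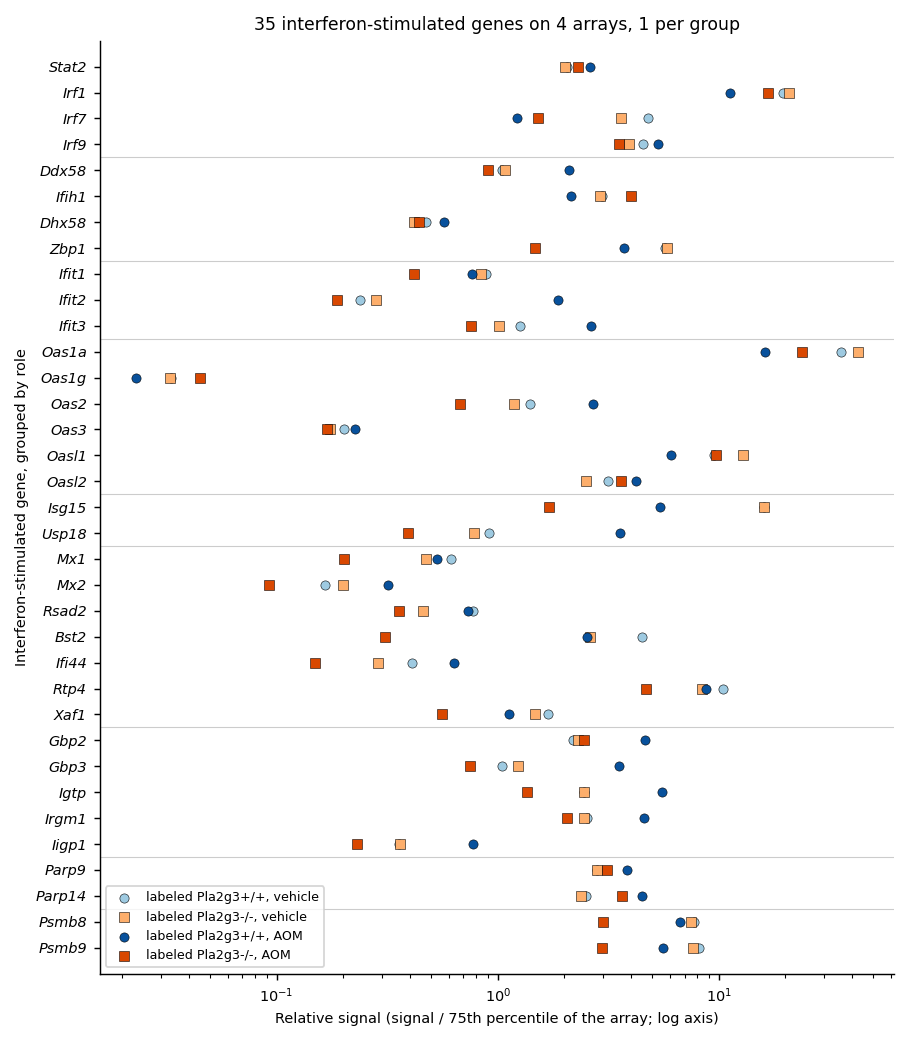
Relative signal (signal divided by the 75th percentile of the array, log axis) of the 35 members on the 4 arrays, with 1 point per array and members grouped by role between gray lines. Circles are WT-labeled arrays and squares KO-labeled ones, pale with vehicle and dark after AOM; the dark square lies lowest of the 4 for 23 members and the dark circle highest for 19.

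After AOM the picture was different. On the KO-labeled array, 18 of 35 members were over 2-fold lower than on the WT-labeled array, where 12.6% of the 21570 genes with a value were. In the other direction, 0 of 35 members were over 2-fold higher, against 14.5% of all genes. The median of the members was -1.02 and that of all genes 0.03. Of the 17 members within 2-fold, 11 were lower and 6 higher in the KO-labeled pool. The direction did not depend on the scaling: the median of the members was between -0.99 and -1.19 and between 17 and 22 members were over 2-fold lower with the main scaling, quantile normalization, median scaling, normexp background correction or no scaling at all.

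The 5 members with the lowest difference in this comparison came from 4 roles. Ifit2, which binds viral RNA and blocks its translation, had relative signals of 0.238 in the WT-labeled pool and 0.280 in the KO-labeled pool with vehicle, and 1.87 and 0.188 after AOM. It thus stood out on a single array, the WT-labeled array after AOM, and was 9.93-fold lower in the KO-labeled pool after AOM. Usp18, the protease that removes ISG15 from proteins and also dampens signaling from the type I receptor, went in the same order from 0.918 and 0.784 with vehicle to 3.58 and 0.391 after AOM, a 9.16-fold difference. For Bst2 the values after AOM were 2.53 and 0.309, 8.20-fold apart, but here it was the KO-labeled array that departed from the other 3. Gbp3, a guanylate binding protein that acts on membranes around intracellular microbes, had 1.04 and 1.24 with vehicle and 3.55 and 0.751 after AOM (4.73-fold lower). Ifi44 reached 0.635 and 0.148 after AOM (4.28-fold lower).

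**Figure D2:**
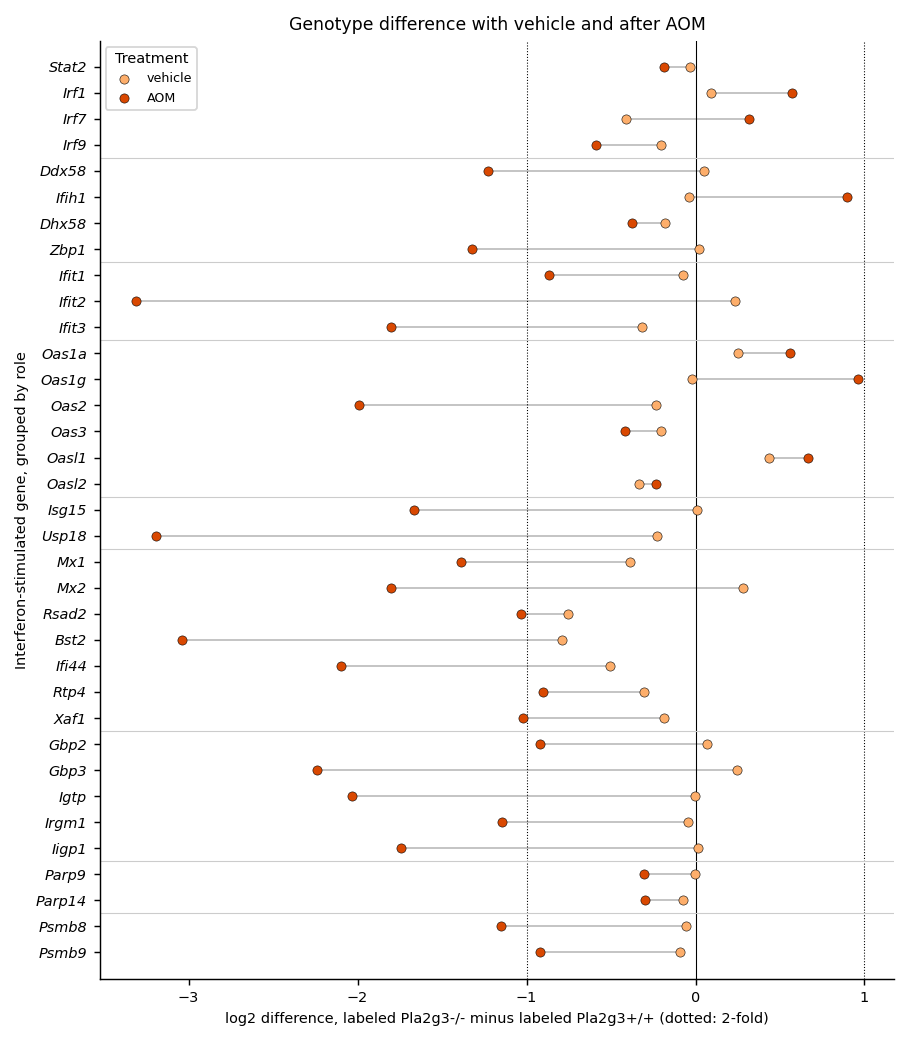
Log2 difference between the KO-labeled and WT-labeled arrays for each of the 35 members, with vehicle (pale points) and after AOM (dark points), joined by a gray line; dotted lines mark 2-fold. With vehicle all points lie between -0.79 and 0.44, whereas after AOM they run from -3.31 (Ifit2) to 0.96 (Oas1g) and 18 lie below -1.

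The 4 transcription factors among the members were within 2-fold between the genotypes. After AOM, 0 of 4 were over 2-fold lower, against 12.6% of all genes, and 0 were over 2-fold higher, against 14.5%. With 4 genes, counts of 0 lie near these shares. Their median was 0.07. Stat2, a subunit of the complex that binds the ISRE, had relative signals of 2.06 and 2.01 with vehicle and 2.62 and 2.31 after AOM, a difference of -0.18 between genotypes after AOM. Its partner Irf9 had 4.52 and 3.92 with vehicle and 5.30 and 3.53 after AOM (-0.59). Irf1, the factor of the interferon-γ response, had 19.5 and 20.8 with vehicle, 11.2 in the WT-labeled pool and 16.6 in the KO-labeled pool after AOM, and so lay on the higher side (0.57). Irf7, which drives production of interferon-α, was lower on both AOM arrays than on both vehicle arrays, with 4.80 and 3.60 with vehicle and 1.22 and 1.52 after AOM, and differed by 0.32 between genotypes after AOM.

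Sensors of foreign nucleic acid were divided. Ddx58 encodes RIG-I, a cytoplasmic sensor of viral RNA, and its relative signal of 2.11 on the WT-labeled array after AOM stood above the other 3 arrays, which had 1.04, 1.08 and 0.901, so that it was 2.34-fold lower in the KO-labeled pool. Zbp1, a sensor of Z-form nucleic acid that can trigger cell death, had 5.73 and 5.81 with vehicle and 3.71 and 1.48 after AOM (2.51-fold lower). Ifih1, which encodes the related RNA sensor MDA5, went the other way, with 2.15 in the WT-labeled pool and 4.0 in the KO-labeled pool after AOM, a 1.86-fold difference, against 2.97 and 2.89 with vehicle. A dimmer probe of Ifih1 gave 0.89 on the log2 scale, where the brighter one gave 0.90. Dhx58, which encodes LGP2, a regulator of both RNA sensors, differed by -0.38.

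Among the IFIT proteins, 2 of 3 were over 2-fold lower in the KO-labeled pool after AOM. Beside Ifit2, Ifit3 had relative signals of 1.26 and 1.01 with vehicle and 2.64 and 0.756 after AOM (3.49-fold lower). Ifit1, which recognizes the cap of foreign mRNA, was 1.82-fold lower, with 0.764 and 0.420 after AOM. Their probes lie within 73.6 kb of each other on chromosome 19 of mm9 (34650244 to 34723855), and the differences of these neighbors ran from -3.31 to -0.86.

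The OAS family, enzymes that make 2′-5′ oligoadenylate and thereby activate RNase L, had the widest range of any role after AOM, from -1.99 to 0.96. Oas2 was 3.98-fold lower in the KO-labeled pool after AOM, with 1.39 and 1.18 with vehicle and 2.69 and 0.676 after AOM. On the same chromosome, within 166 kb (chromosome 5 of mm9, 121180343 to 121346794), Oas1a and Oas1g lay on the other side. Oas1a had 35.9 and 42.8 with vehicle and 16.2 and 23.8 after AOM (a difference of 0.56 between genotypes after AOM), and Oas1g, close to the lower end of detection, had 0.0334 and 0.0328 with vehicle and 0.0230 and 0.0449 after AOM (0.96). The other Oas1g probe was well above background only on the WT-labeled array after AOM (0.0172, against 0.00343 on the KO-labeled array). It lay on the lower side, with a bound of -0.14, so the direction of Oas1g depends on the probe. The Oas1 genes are close paralogs with similar promoters, shown above, and cross-hybridization between them was not measured. Oasl1, a member that represses translation of Irf7, had 6.10 and 9.69 after AOM (0.67), Oasl2 3.17 and 2.51 with vehicle and 4.24 and 3.61 after AOM (-0.23) and Oas3 0.226 and 0.169 after AOM (-0.42).

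ISG15 is a ubiquitin-like protein that is attached to other proteins during the interferon response and is also secreted. Isg15 had relative signals of 15.9 and 16.1 with vehicle, 5.42 on the WT-labeled array and 1.71 on the KO-labeled array after AOM. Both AOM arrays were thus below both vehicle arrays, and the difference between genotypes after AOM was 3.17-fold. Its dimmer probe gave -1.68 on the log2 scale beside -1.67 for the brighter one. Isg15 and Usp18 therefore shared the genotype difference after AOM, but Usp18 was 3.90-fold higher and Isg15 2.94-fold lower after AOM than with vehicle in the WT-labeled pool.

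Of the other antiviral effectors, 6 of 7 were over 2-fold lower in the KO-labeled pool after AOM. Mx1 and Mx2 encode GTPases that trap viral components. Mx2 had 0.165 and 0.201 with vehicle and 0.320 and 0.0918 after AOM (3.49-fold lower), and Mx1 had 0.617 and 0.473 with vehicle and 0.529 and 0.203 after AOM (2.61-fold lower). Rsad2, at 0.732 and 0.357 after AOM, was 2.05-fold lower, and with vehicle its difference was -0.75 on the log2 scale, within 2-fold. Rtp4, at 8.74 and 4.68 after AOM, was the member of this role within 2-fold (1.87-fold lower).

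Xaf1, an interferon-induced gene with a role in apoptosis, showed how much the choice of probe can matter. Its brightest probe (chromosome 11 of mm9, 72122169 to 72122228) had relative signals of 1.68 and 1.47 with vehicle and 1.13 and 0.558 after AOM, a 2.03-fold difference between genotypes after AOM. The other probe, at 72127175 to 72127234, was not well above background on either vehicle array (0.0184 and 0.0116) and reached 3.49 and 1.93 after AOM. By that probe Xaf1 was higher after AOM in both genotypes and differed by -0.86 between genotypes after AOM. The genotype difference thus had 1 direction with both probes, whereas the difference between AOM and vehicle had opposite directions. For the 11 members with several probes that gave values after AOM, the probes of a gene differed by a median of 0.14 log2 units in the genotype comparison, and those of Xaf1 and Irgm1 fell on both sides of 2-fold.

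The guanylate binding proteins and immunity-related GTPases, which attack the vacuoles of intracellular microbes and respond strongly to interferon-γ, were lower without exception. All 5 lay lower in the KO-labeled pool after AOM, 4 of them over 2-fold. Igtp had 2.45 on each vehicle array and 5.56 and 1.36 after AOM (4.09-fold lower). Iigp1 had 0.356 and 0.360 with vehicle and 0.771 and 0.230 after AOM (3.35-fold lower), and its dimmer probe gave a larger difference, -3.44 on the log2 scale. Irgm1 had 2.52 and 2.44 with vehicle and 4.57 and 2.07 after AOM (2.21-fold lower). Gbp2 had 2.20 and 2.31 with vehicle and 4.63 and 2.45 after AOM (1.89-fold lower). In all 5, the WT-labeled array after AOM was the highest of the 4, and the vehicle arrays were within 0.24 log2 units of each other.

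Parp9 and Parp14, which encode ADP-ribosyltransferase family proteins, hardly differed between genotypes. Parp14 had 2.52 and 2.39 with vehicle and 4.50 and 3.66 after AOM, and each gene differed by -0.30 after AOM. For the immunoproteasome, which cuts proteins into peptides for MHC class I, Psmb8 had 7.75 and 7.47 with vehicle and 6.66 and 3.00 after AOM (2.22-fold lower), and Psmb9 had 8.12 and 7.62 with vehicle and 5.61 and 2.96 after AOM (1.90-fold lower). Psmb8 and Psmb9 lie within 18.7 kb on chromosome 17 of mm9.

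Setting AOM against vehicle within each genotype shows on which array the members moved. In the WT-labeled pools, 8 of 35 members were over 2-fold higher after AOM, against 14.8% of the 21778 genes with a value, and 3 were over 2-fold lower, against 22.8%. The median of the members was 0.23 and that of all genes -0.22. The 8 members were Ifit2 (7.85-fold), Usp18 (3.90-fold), Gbp3 (3.41-fold), Igtp (2.26-fold), Iigp1 (2.16-fold), Gbp2 (2.11-fold), Ifit3 (2.10-fold) and Ddx58 (2.03-fold). The 3 lower ones were Irf7 (3.92-fold), Isg15 (2.94-fold) and Oas1a (2.22-fold). Without scaling between the arrays, which shifts the median of all genes to 0.82, 19 members were over 2-fold higher and 0 lower.

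In the KO-labeled pools, 0 of 35 members were over 2-fold higher after AOM, against 10.4% of 20616 genes, and 10 were over 2-fold lower, against 16.5%. The median of the members was -0.64 and that of all genes -0.12. The lowest were Isg15 (9.41-fold lower), Bst2 (8.44-fold), Zbp1 (3.92-fold), Xaf1 by its brightest probe (2.64-fold), Psmb9 (2.58-fold) and Psmb8 (2.48-fold). The highest was Parp14, at 1.53-fold, followed by Oasl2 (1.44-fold). Without scaling, which shifts the median of all genes to 0.71, the median of the members turned to 0.20, with 5 members over 2-fold higher and 3 lower, so the direction of the members as a group in these pools holds only relative to the other genes on the arrays.

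**Figure D3:**
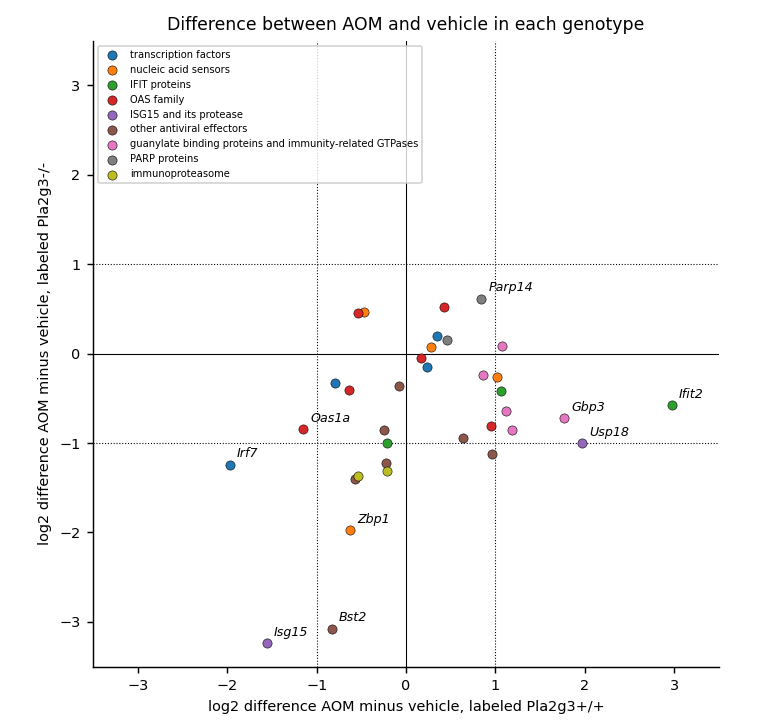
Log2 difference between AOM and vehicle of each member in the WT-labeled pool (horizontal axis) and in the KO-labeled pools (vertical axis), colored by role; dotted lines mark 2-fold and 1 pool per group was measured. Points at the lower right, such as Ifit2 (2.97 and -0.58) and Usp18 (1.96 and -1.0), were higher after AOM in the first and lower in the second.

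Taking the 4 arrays together, 13 of 35 members were higher after AOM in the WT-labeled pool and lower after AOM in the KO-labeled pools, against 13.7% of the 18083 genes well above background on all 4 arrays. For 7 of the 13 both differences passed 1.5-fold, against 2.45% of these genes, and without scaling between the arrays this held for 0 members. The opposite order was found for Ifih1 and Oas1g, 2 of 35 against 15.6%. A further 14 members were lower after AOM in both genotypes, against 42.7%, and 6 were higher in both, against 28.1%, the 6 being Stat2, Dhx58, Oasl2, Gbp2, Parp9 and Parp14. These counts use the brightest probe of each gene. The other Oas1g probe gave no value for AOM against vehicle in either genotype. The dimmer Ifih1 probe was higher after AOM in both genotypes, by 0.06 (WT-labeled) and 1.37 (KO-labeled) on the log2 scale. Dimmer probes of Ddx58 (1.26 and 0.18) and Irgm1 (0.89 and 0.20) were higher in both as well, whereas that of Iigp1 kept the order (2.35 and -1.29). The WT-labeled array after AOM was the highest of the 4 for 19 of 35 members, against 26.9% of all genes, and the KO-labeled array after AOM was the lowest for 23, against 28.5%. Members over 2-fold above each of the other 3 arrays on the WT-labeled array after AOM were Ifit2, Ifit3, Usp18, Gbp3, Igtp and Iigp1, which is 6 of 35 against 5.51% of all genes. Members over 2-fold below each of the other 3 on the KO-labeled array after AOM were Zbp1, Isg15, Usp18, Mx1, Bst2, Xaf1 and Psmb8, which is 7 of 35 against 2.76%. Usp18 belongs to both. These counts of single arrays depend on the scaling. Without scaling, Zbp1, Isg15 and Bst2 stayed over 2-fold below each other array, whereas Usp18, Mx1, Xaf1 and Psmb8 did not. The signals of the latter were 426, 221, 609 and 3280, against 478, 288, 898 and 4548 on the KO-labeled array with vehicle.

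The only fit with a residual, limma with additive terms for treatment and genotype on the 4 arrays, asked for differences that were alike at both levels of the other factor. It called 0 of 35 members for AOM and 0 for genotype, as it called 0% of the 22708 genes tested for either. At an unadjusted p under 0.05 there were 2 members for AOM, Irf7 (log2 difference -1.61, limma adjusted p = 0.317, lower on 2 of 2 AOM arrays) and Isg15 (-2.40, limma adjusted p = 0.317, likewise lower on both), and 0 for genotype. Over all genes these numbers were 3579 and 306. With 1 residual degree of freedom, the fit counts a genotype difference that is present after AOM alone as error.

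The other genes of the pathway were taken from a list of 88, of which 79 were on the array under the listed names. After AOM, 21 of the 75 with a value (28%) were over 2-fold lower in the KO-labeled pool, against 12.6% of all genes. In the other direction, 5 (6.67%) were over 2-fold higher, against 14.5%. Ligands were near or below the lower end of detection. Ifnb1, Ifna4 and Ifna13 were not well above background on any array. Of the 11 ligands with a value, 1 was over 2-fold lower, Ifng (interferon-γ), with relative signals of 0.0615 and 0.0353 with vehicle and 0.0705 in the WT-labeled pool after AOM, where the KO-labeled pool was not well above background (0.00443). Ifng was thus at least 4.50-fold lower there. Among the receptors, Ifnar2, a chain of the type I receptor, had 0.777 and 0.890 with vehicle and 1.66 and 0.620 after AOM (2.68-fold lower in the KO-labeled pool). Ifnar1, the other chain, was 2.20-fold higher after AOM than with vehicle in the WT-labeled pool and 1.56-fold lower in the KO-labeled pool than in the WT-labeled pool after AOM. Ifngr1, the binding chain of the interferon-γ receptor, lay on the other side, at 7.43 and 16.9 after AOM (2.28-fold higher).

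Of 10 kinases, factors and feedback genes, 3 were over 2-fold lower in the KO-labeled pool after AOM, and 1, Irf2, was 3.07-fold higher. The lower ones were Socs3 (7.64-fold) and Socs1 (2.43-fold), inhibitors of the JAK kinases, and the transcription factor Irf5, with 0.180 and 0.175 with vehicle and 0.332 and 0.132 after AOM (2.51-fold lower). In upstream sensing, Tmem173, which encodes STING, had 1.15 and 1.38 with vehicle and 12.3 and 1.34 after AOM (9.23-fold lower in the KO-labeled pool). Among 37 other interferon-stimulated genes, 15 were over 2-fold lower and 2, Ddx60 and Parp12, over 2-fold higher, with a median of -0.76. The largest difference was in Cxcl9, a chemokine that attracts T cells and responds to interferon-γ. It had 0.307 and 0.365 with vehicle and 3.91 and 0.0231 after AOM (170-fold lower). The last of these values was close to the lower end of detection, so the size of this fold is uncertain. Cxcl10 was 29.8-fold lower, Tgtp2 22.3-fold, Ifitm1 13.0-fold, Ifitm3 9.08-fold and Nlrc5, the activator of MHC class I genes, 7.58-fold. The range of the members, down to -3.31, was narrower than that of these 37 genes, down to -7.41.

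**Figure D4:**
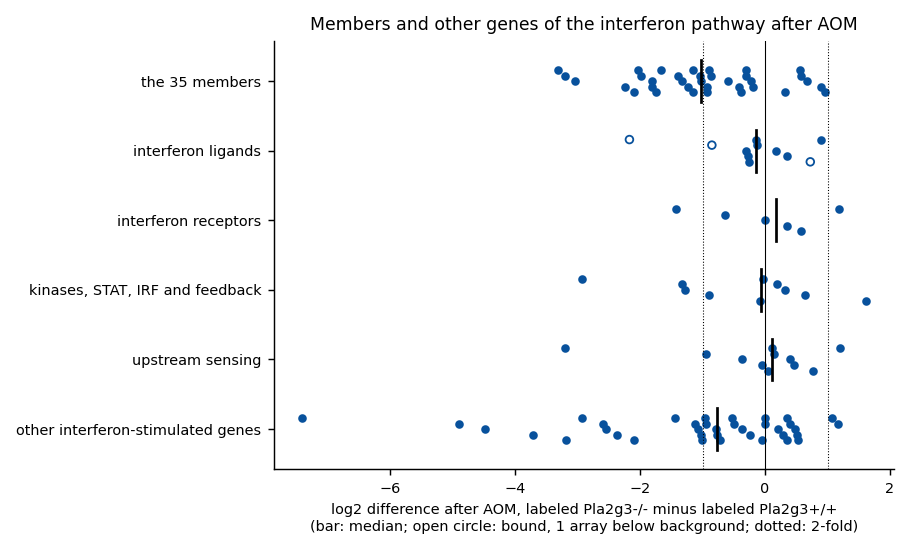
Log2 difference after AOM between the KO-labeled and WT-labeled arrays for the 35 members and for the other genes of the interferon pathway by class, with 1 point per gene; black bars are medians, open circles are bounds and dotted lines mark 2-fold. The median was -1.02 for the members and -0.76 for the other interferon-stimulated genes, whereas those of receptors (0.17) and of upstream sensing genes (0.12) lay above 0.

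Markers of cell types differed between the same AOM pools. For comparison, 12.6% of all genes were over 2-fold lower and 14.5% over 2-fold higher in the KO-labeled pool. Of T and NK cell markers, 8 of the 11 with a value were over 2-fold lower in the KO-labeled pool. The summed relative signal of the list was 5.88 in the WT-labeled pool and 2.58 in the KO-labeled pool, against 15.6 and 17.7 with vehicle. Without Gzma, the brightest, the sums were 5.08 and 2.47 after AOM and 7.76 and 7.66 with vehicle. The NK markers Ncr1 and Klrb1c gave no value in any comparison. All 7 B cell and plasma cell markers were over 2-fold lower, with sums of 41.2 and 5.41 after AOM and of 74.9 and 73.0 with vehicle. Most of these sums came from Igj, and without it they were 1.76 and 0.262 after AOM and 4.52 and 4.15 with vehicle.

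In the macrophage, dendritic cell and neutrophil lists, a single bright probe made up much of the sum. For macrophages and dendritic cells, 7 of 10 markers were over 2-fold lower and 1 higher, and Xcr1 was not well above background on any array. The sums were 85.0 and 87.6 after AOM, and without Siglech, the brightest, 32.5 and 24.1, against 32.0 and 29.9 with vehicle. Of these, Itgam, the marker over 2-fold higher, gave 6.33 and 13.5 after AOM and 19.8 and 16.4 with vehicle. For neutrophils, 5 of 8 were over 2-fold lower and 1 higher, with sums of 100.5 and 66.5 after AOM. Without Csf3r, the sums were 53.2 and 8.93, against 6.50 and 4.97 with vehicle. Of these, Ly6g, the marker over 2-fold higher, gave 2.77 and 7.97 after AOM and 5.37 and 3.83 with vehicle.

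Among the other cell types, smooth muscle markers went the other way, 9 of 9 over 2-fold higher, with sums of 42.9 in the WT-labeled pool and 675 in the KO-labeled pool after AOM, against 692 and 737 with vehicle. Epithelial markers were over 2-fold higher for 5 of 12, with sums of 537 and 955 after AOM, against 1133 and 1179 with vehicle. Of 6 fibroblast markers, Col1a1, Col1a2 and Pdgfra were over 2-fold lower and Lum higher, with sums of 119 and 87.7 after AOM against 38.9 and 44.1 with vehicle. Of 6 endothelial markers, Cdh5 and Esam were over 2-fold lower, with sums of 7.84 and 5.54 after AOM against 6.72 and 7.20 with vehicle. Without Kdr, the brightest, these sums were 4.75 and 2.72 after AOM and 1.28 and 1.56 with vehicle. The part of these cell types in the differences of the interferon-stimulated genes was not tested. In pooled whole tissue, fewer cells of a type and less RNA per cell cannot be told apart.

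**Figure D5:**
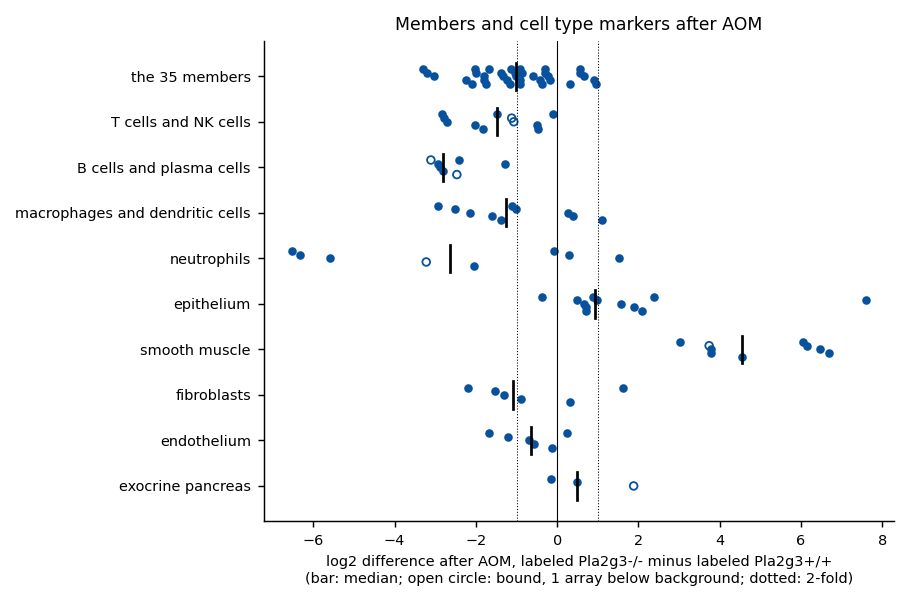
Log2 difference after AOM between the KO-labeled and WT-labeled arrays for the 35 members and for each cell type marker with a value, by list, with 1 point per gene; black bars are medians, open circles are bounds and dotted lines mark 2-fold. All 9 smooth muscle markers lie to the right, from 3.03 (Acta2) to 6.69 (Des), and all 7 B cell and plasma cell markers lie to the left.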

How the data were processed

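RNA of 4 colon pools (27.7 ng each) was labeled with Cy3 and hybridized to Agilent Whole Mouse Genome arrays, 1 per group. For every spot the authors deposited an intensity, processed with Agilent Feature Extraction 11.5.1.1 per the submitters' processing notes, with background subtracted and no scaling between arrays. The deposited value table holds a ratio to the 75th percentile of the array. On each array it was checked to differ from the intensity by a constant factor.

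Control spots and outlier spots were left out, replicate spots averaged on the log2 scale and the 75th percentile over probes subtracted. For each gene the probe with the highest mean signal was used. The 35 members have 47 probes. Of these members, 23 have 1 probe. A signal not well above background on 1 array gave a bound and on both arrays no value. Coordinates of probes are those of the array files (mm9), and those of promoters are RefSeq's (GRCm38.p6).

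Groups came from the deposited labels. The members, gene lists and alternatives were chosen with earlier results of these data known. Full values were given for the transcription factors and for the 5 highest and the 5 lowest members of each comparison, and the other members by role. The number of arrays limits the precision. limma 3.58.1 in R 4.3.3 was fitted with Benjamini-Hochberg adjustment, after it and the fold calls were tested on simulated data. The other software was matplotlib 3.10.9, numpy 2.4.6, pandas 2.3.3 and Python 3.11.15. As alternatives, arrays were left unscaled, scaled by the median, quantile normalized, or corrected by normexp (offset 50) and quantile normalized. Others were a floor after scaling, genes detected on both arrays only, dim probes kept in, the mean over probes, the dimmest detected probe, the deposited table, a 1.5-fold threshold and, for limma, an intensity trend. A further gene of the wider pathway list is not reported here.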

Additional observations from a re-analysis of the deposited data

Results flagged for a closer look

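In 7 members the difference between AOM and vehicle passed 1.5-fold in opposite directions, higher in the WT-labeled pools and lower in the KO-labeled pools. The gap between these differences on the log2 scale was 2.97 for Usp18, 2.49 for Gbp3, 2.08 for Mx2, 2.03 for Igtp, 1.76 for Oas2, 1.76 for Iigp1 and 1.59 for Ifi44. Among all genes well above background on the 4 arrays, 2.45% met the same condition. It depends on the scaling. It was met by 7 members with scaling by the median, 8 with quantile normalization, 3 with normexp and quantile normalization and 0 without scaling, where the differences of these 7 members in the KO-labeled pools ran from -0.29 to 0.20 on the log2 scale instead of from -1.13 to -0.64. Each group is 1 array, and the difference was not tested.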

How the results depend on the processing

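No paired analysis was possible because each group holds 1 array and the labels carry no replicate numbers, and for the same reason no array could be left out. Of the 18 members over 2-fold lower in the KO-labeled pool after AOM, all kept their direction under all 10 alternatives other than the fold threshold, and 173 of 180 values stayed past 2-fold. The same held for direction in 110 of 110 values for AOM against vehicle in the WT-labeled pools and in 97 of 99 in the KO-labeled pools. The other 2 were Xaf1, which turned to 2.98 with the mean over probes and to 6.31 with the dimmest detected probe, the probe below background with vehicle. Counts of members moved by over 1.5 times as follows. A 1.5-fold threshold gave 2 lower with vehicle (0 at 2-fold), 3 higher for genotype after AOM (0), 13 higher and 7 lower for AOM in the WT-labeled pools (8 and 3), and 1 higher and 18 lower for AOM in the KO-labeled pools (0 and 10). Without scaling, AOM against vehicle gave 19 higher and 0 lower in the WT-labeled pools and 5 higher and 3 lower in the KO-labeled pools. In those pools, the mean over probes gave 1 higher and the dimmest detected probe 3. limma called 0 members for AOM and 0 for genotype under all its alternatives, with 1 to 4 members for AOM and 0 or 1 for genotype at an unadjusted p under 0.05. The spread between mice was not measured.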
